A study of Mus musculus with 6 samples.

Results

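A set of 33 genes of the heart's extracellular matrix other than collagens, with the fibroblast markers Pdgfra and Tcf21 among them, was examined in whole hearts of mice at postnatal day 7. The genes were chosen by symbol, and each matched 1 row among the 52550 mouse gene rows of the count files. The cardiac extracellular matrix is laid down mainly by fibroblasts, with shares from endothelial, mural and valve cells, and it is remodelled quickly in the first days after birth. Besides the collagens it holds small leucine-rich proteoglycans that bind collagen fibrils, elastic fibres built of elastin on a microfibril scaffold, matricellular proteins that tune adhesion, and the enzymes and inhibitors that crosslink and cut the network.

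The GR-cKO mice carried a deletion of Nr3c1, the gene of the glucocorticoid receptor, that is specific to cardiomyocytes, and they were set against control mice. Each group had 3 libraries, called biological replicates in the labels, each of homogenised heart tissue. The labels give neither the Cre line and its promoter, the deleted exon nor the alleles of the control mice. A deletion specific to cardiomyocytes leaves the gene in fibroblasts, endothelial cells and the other cells of the heart, which were part of the tissue. The study asked what losing the receptor in heart muscle does to transcript levels in the young heart.

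Libraries were made by 3′ mRNA sequencing, in which a transcript gives reads from its 3′ end only, so that counts do not grow with transcript length. Levels of different genes are set side by side on that ground. How fully the reads of each gene's 3′ end were counted was not tested. The 6 libraries had 18135540 to 22999192 reads. Levels are in CPM, a gene's reads scaled to a fixed total over all tested genes, with library sizes adjusted by the trimmed mean of M-values (TMM). Nr3c1 was at 57.6, 49.2 and 56.2 CPM in GR-cKO replicates 1, 2 and 3 and at 114, 131 and 99.8 CPM in control replicates 1, 2 and 3, in the direction of the labels (edgeR adjusted p = 0.00101). GR-cKO replicate 3 stood apart in Gm42418, a transcript that lies over ribosomal RNA sequence and took 10.9% of its mouse gene reads, while the range elsewhere was 5.47 to 7.69%. Its cycling cell markers, 8 genes in all, summed to 224 CPM, against 353 to 434 CPM elsewhere. Control replicate 2 stood apart in fat genes, where Ucp1 reached 89.3 CPM, while no other heart exceeded 18.8 CPM. By Xist and Y-linked reads, replicate 1 of each group was female and the other libraries were male. Cardiomyocyte markers were abundant in all 6 hearts, Myh6 for example at 9356 to 14060 CPM.

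The promoter windows below belong to the 3 genes whose GR-cKO and control hearts did not overlap (Postn, Efemp1, Tcf21), to Vcan, which had the smallest unadjusted p, and to Sparc, which had the highest level. Each is the 120 bases before a transcription start of RefSeq, 5′ to 3′ on the gene's strand, on GRCm38.p6. They lie at chr3:54360987-54361106 (plus strand, the start nearest the annotated gene start of Postn), chr11:28853085-28853204 (plus), chr10:22820144-22820263 (minus), chr13:89742513-89742632 (minus) and chr11:55420081-55420200 (minus). The window of Sparc lies inside the gene as GENCODE M21 places it, whose start is at 55423183, and so belongs to an internal start, while the other 4 windows lie at the annotated gene starts. Capitals mark motifs searched for on both strands. TATAAA is the core of the TATA box, which sits close to the start of some genes. GGGCGG is the GC box bound by factors of the Sp family, and CCAAT is the core of the box of that name. AGAACA is the half-site of the response element bound by the glucocorticoid receptor.
Postn: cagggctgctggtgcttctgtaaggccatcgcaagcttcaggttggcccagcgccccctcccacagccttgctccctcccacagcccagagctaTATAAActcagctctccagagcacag
Efemp1: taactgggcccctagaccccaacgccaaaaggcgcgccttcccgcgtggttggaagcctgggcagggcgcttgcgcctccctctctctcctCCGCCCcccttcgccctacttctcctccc
Tcf21: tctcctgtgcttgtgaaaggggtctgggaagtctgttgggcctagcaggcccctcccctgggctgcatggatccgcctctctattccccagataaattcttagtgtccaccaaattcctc
Vcan: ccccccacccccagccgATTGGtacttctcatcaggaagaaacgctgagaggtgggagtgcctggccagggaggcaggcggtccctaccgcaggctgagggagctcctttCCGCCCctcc
Sparc: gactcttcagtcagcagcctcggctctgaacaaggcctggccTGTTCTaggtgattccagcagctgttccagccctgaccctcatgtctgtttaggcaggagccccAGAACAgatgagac
RefSeq promoters were at hand for 21 of the 33 genes, 28 promoters in all. Of these 28, the TATA box was in 1, that of Postn, or 3.57%, against 6.34% of all 32851 promoters. The GC box was in 15, or 53.6%, against 26.5% of all promoters. The median GC content of the window was 62.1% in the 28 promoters and 54.2% in all promoters. The CCAAT box was in 4, or 14.3%, against 21.3%, and the AP-1 letters TGANTCA were in 0, against 3.41%. The half-site was in 1, that of Sparc, which held 2 copies on opposite strands, or 3.57% against 7.68% of all promoters. The full element, made of AGAACA, 3 bases of any kind and TGTTC and so containing the half-site, was in 0 of the 28 and in 2 of all 32851. These matches describe letters in the windows and not binding.

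The levels of the 33 genes spanned from Sparc at a mean of 1892 CPM over the 6 hearts to Efemp1 at 1.68 CPM. Sparc, which encodes a collagen-binding matricellular glycoprotein, ranked 39th of 14860 tested genes and supplied 26.8% of the summed level of the 33. The next were Dcn at 745 CPM, Eln at 735 CPM, Timp2 at 565 CPM and Serpinh1 at 491 CPM, and the highest 5 together supplied 62.6%. In all 12 genes lay above 100 CPM, 19 between 10 and 100 CPM, and 2, Thbs1 at 8.86 CPM and Efemp1, below 10 CPM. Along this order of levels, neighbours were separated in every heart at only 6 of 32 steps, which lay after Sparc, Timp2, Sparcl1, Fn1, Vcan and Thbs1. At the other 26 steps the ranges of neighbouring genes over the 6 hearts overlapped, as for Dcn and Eln.

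**Figure D1:**
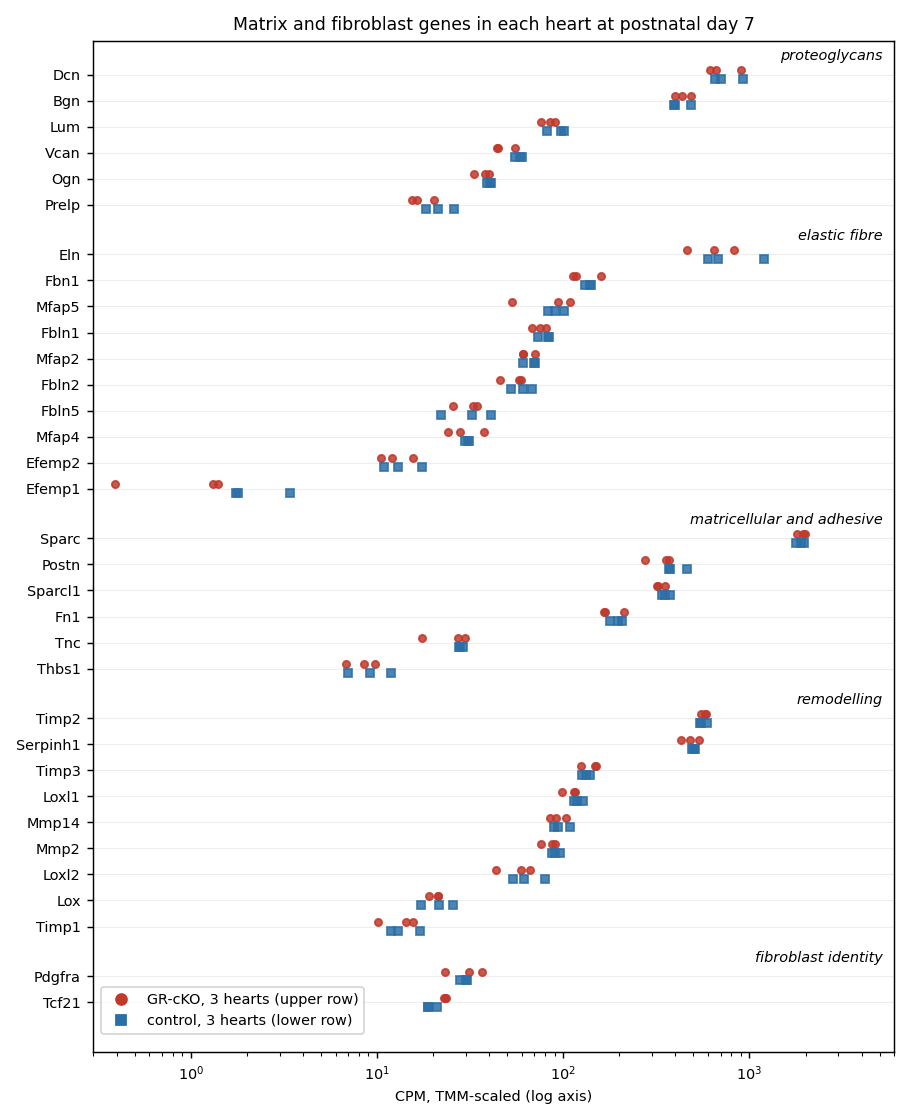
Level of each gene in each heart, in TMM-scaled CPM on a log axis, by functional group and in order of mean level. Circles in the upper row of a gene are the 3 GR-cKO hearts and squares in the lower row the 3 control hearts. The 2 groups of hearts overlap for 30 of the 33 genes, and Efemp1, at 0.391 to 3.41 CPM, lies far below the rest.

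None of the 33 genes differed between GR-cKO and control hearts past the threshold of an adjusted p of 0.05 in the edgeR quasi-likelihood test, in which 1 of 14860 genes passed, Nr3c1, or 0.00673%. DESeq2 and limma voom also called 0 of the 33. At an unadjusted p under 0.05 there was 1 of 33, Vcan, or 3.03%, against 4.2% of all tested genes. No GR-cKO heart fell within the range of the controls, with all 3 above or all 3 below, for 3 of the 33, or 9.09%, against 9.97% of all tested genes. Efemp1 and Postn lay below the controls and Tcf21 above them, against 5.27% of all tested genes that lay below and 4.7% above. Efemp1 entered this count only because its control hearts passed the filter on low counts.

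Most fold changes of the set had a negative sign but were small. Of the 33 genes 27, or 81.8%, had a negative log2 fold change (GR-cKO over control), against 48.7% of all tested genes, and the median was -0.09 against 0.01. These genes share their cells and their 6 hearts, so they are not independent counts. Leaving out control replicate 2 gave 21 negative signs, leaving out GR-cKO replicate 3 gave 22, and scaling by spike-in transcripts gave 22. The median was -0.03 without control replicate 2, -0.15 without GR-cKO replicate 1, -0.14 without control replicate 3, -0.06 without GR-cKO replicate 3 and -0.04 under spike-in scaling. The median standard error (SE) of a fold change was 0.131 for the 33 and 0.207 for all tested genes. For 31 of the 33, or 93.9%, the 95% interval left out changes of 2-fold both upwards and downwards, against 72.2% of all tested genes. For 28, or 84.8%, the interval left out changes of 1.5-fold, against 47.8% of all tested genes. The exceptions at 1.5-fold were Eln, Efemp1, Prelp, Mfap5 and Thbs1, of which Eln and Efemp1 also reached 2-fold. All 33 passed the filter on low counts, but Efemp1 did so only through the controls, since 2 of its 3 GR-cKO libraries and all 3 control libraries reached the minimum.

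**Figure D2:**
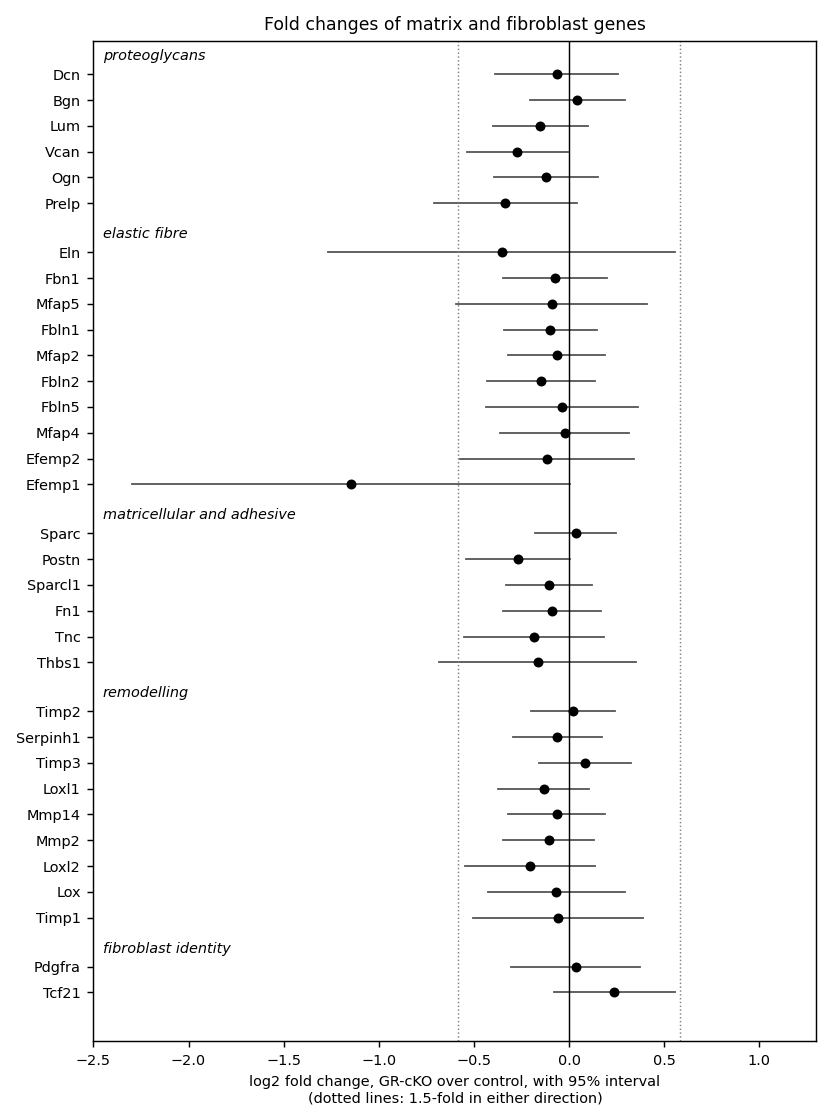
Log2 fold change of each gene, GR-cKO over control, as points with 95% intervals from the edgeR fit, by functional group. Most points lie left of 0 and within the dotted lines at 1.5-fold, while the intervals of Eln and Efemp1 reach beyond a 2-fold decrease.

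The proteoglycans comprised 6 genes, and the log2 fold change was below 0 for 5 of them (median -0.14). Dcn (chromosome 10, 97479609 to 97518143, plus strand) encodes decorin, which coats collagen fibrils and binds TGF-beta. It was at 615, 664 and 906 CPM in GR-cKO replicates 1, 2 and 3 and at 704, 925 and 655 CPM in control replicates 1, 2 and 3. The groups overlapped widely, with GR-cKO replicate 3 and control replicate 2 both high (log2 fold change -0.06, SE 0.153, 95% interval -0.39 to 0.26). Bgn (chromosome X, 73483602 to 73495933, plus strand) encodes biglycan, the closest relative of decorin. It was at 485, 399 and 433 CPM in GR-cKO hearts and at 395, 399 and 484 CPM in control hearts, nearly the same set of values (log2 fold change 0.04, SE 0.119, 95% interval -0.21 to 0.29). The ratio of Dcn to Bgn within a heart was 1.67 ± 0.412 in GR-cKO and 1.82 ± 0.485 in control hearts (SD, n = 3 each).

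Vcan (chromosome 13, 89655312 to 89742509, minus strand) encodes versican, a large hyaluronan-binding proteoglycan of the developing heart. It was at 55.3, 43.9 and 44.9 CPM in GR-cKO hearts and at 58.5, 55.3 and 60.0 CPM in control hearts. GR-cKO replicate 1 reached the lowest control and the other 2 GR-cKO hearts lay below all controls. The log2 fold change of -0.27 (SE 0.128, 95% interval -0.54 to -0.0037) had an unadjusted p of 0.0472 and an edgeR adjusted p of 0.998. With each heart left out in turn the fold change stayed between -0.38 and -0.21. Prelp (chromosome 1, 133910304 to 133921414, minus strand) encodes a leucine-rich protein that links basement membranes to connective tissue. It was at 20.3, 16.4 and 15.3 CPM in GR-cKO hearts and at 18.4, 26.0 and 21.2 CPM in control hearts, with 1 GR-cKO heart inside the control range (log2 fold change -0.33, SE 0.180, 95% interval -0.71 to 0.04, edgeR adjusted p = 0.998). Lum, the fibril-spacing lumican, averaged 84.0 ± 7.43 CPM in GR-cKO and 93.2 ± 9.66 CPM in control hearts, and Ogn, osteoglycin, averaged 37.0 ± 3.48 and 40.2 ± 1.06 CPM in GR-cKO and control hearts (SD, n = 3 each).

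The elastic fibre genes comprised 10 genes, all with a negative log2 fold change, from -1.15 to -0.02 with a median of -0.10. This uniform sign did not hold in every setting. Only 7 of the 10 were negative in the absence of either control replicate 2 or GR-cKO replicate 3. Without GR-cKO replicate 1 the number was 8, and without GR-cKO replicate 2 it was 9. Under spike-in scaling 7 were negative. Eln (chromosome 5, 134702593 to 134747323, minus strand) encodes tropoelastin, the elastic core of the fibre. It was at 646, 830 and 459 CPM in GR-cKO hearts and at 601, 1197 and 676 CPM in control hearts. Control replicate 2 was the highest and GR-cKO replicate 3 the lowest, a ratio of 2.61, and the other 4 hearts mixed. On the log2 scale GR-cKO over control came to -0.35 (SE 0.357, 95% interval -1.26 to 0.56, edgeR adjusted p = 0.998) and 0.02 without control replicate 2. Eln made up 57.2% of the summed level of the 10 genes in GR-cKO and 61.7% in control hearts, so the sum followed it. Without Eln the other 9 genes summed to 508, 506 and 433 CPM in GR-cKO hearts and to 496, 551 and 492 CPM in control hearts.

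Fbn1 (chromosome 2, 125300594 to 125507993, minus strand) encodes fibrillin-1, the main microfibril protein. It was at 159, 113 and 117 CPM in GR-cKO hearts and at 130, 139 and 140 CPM in control hearts. The controls lay close together within the wider GR-cKO range (log2 fold change -0.08, SE 0.131, 95% interval -0.35 to 0.20). The fibulins Fbln1, Fbln2 and Fbln5 bridge elastin, microfibrils and the cell surface, and Fbln2 had the smallest p of them. Fbln2 was at 59.5, 57.5 and 45.9 CPM in GR-cKO hearts and at 52.2, 67.7 and 60.6 CPM in control hearts, with GR-cKO replicate 3 lowest (log2 fold change -0.15, SE 0.136, 95% interval -0.43 to 0.14). Fbln1 averaged 74.7 ± 6.51 CPM in GR-cKO and 80.0 ± 6.11 CPM in control hearts, and Fbln5 averaged 31.0 ± 4.63 and 31.8 ± 9.40 CPM in GR-cKO and control hearts (SD, n = 3 each).

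Efemp1 (chromosome 11, 28853204 to 28926743, plus strand), which encodes fibulin-3, was the scarcest of the 33. It had 7, 28 and 26 reads in GR-cKO replicates 1, 2 and 3 and 41, 34 and 65 reads in control replicates 1, 2 and 3. All 3 GR-cKO hearts lay below all 3 controls (1.04 ± 0.561 and 2.32 ± 0.947 CPM in GR-cKO and control hearts, SD, n = 3 each). Efemp1 passed the filter on low counts only through the controls, where it was higher, so its separation is not independent of that filter. The fitted difference was -1.15 on the log2 scale with a wide 95% interval of -2.30 to 0.0054 (edgeR adjusted p = 0.998), and ran from -1.41 to -0.76 with each heart left out. Mfap2, Mfap4 and Mfap5 encode microfibril-associated proteins, and their group means lay close together. Mfap5 was at 94.0, 109 and 53.1 CPM in GR-cKO hearts and at 82.5, 100.4 and 90.4 CPM in control hearts, and GR-cKO replicate 3 alone lay far from the other 5. Its log2 fold change was -0.09, and 0.16 without that heart. Mfap2 averaged 64.0 ± 6.04 CPM in GR-cKO and 66.9 ± 5.56 CPM in control hearts, and Mfap4 averaged 29.9 ± 7.05 and 30.4 ± 0.786 CPM in GR-cKO and control hearts (SD, n = 3 each). Efemp2, fibulin-4, averaged 12.7 ± 2.59 CPM in GR-cKO and 13.8 ± 3.30 CPM in control hearts (SD, n = 3 each). Mfap4 and Efemp2 share 89 and 173 exon bases with Mapk7 and Mus81 on the opposite strand, genes of 1179 and 2314 reads over the 6 libraries. This leaves their counts uncertain if strand was ignored. Fbn1 and, among the remodelling genes, Timp3 share 2442 and 1733 exon bases with Gm9913 and Syn3, genes of 91 and 19 reads. The same limit applies to them.

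The matricellular and adhesive genes comprised 6 genes, and 5 of them were lower in the GR-cKO mean, none past the threshold (median log2 fold change -0.14). Sparc (chromosome 11, 55394500 to 55423183, minus strand) was at 1945, 1803 and 1994 CPM in GR-cKO hearts and at 1769, 1950 and 1889 CPM in control hearts. Its hearts differed by at most 1.13-fold, and its 95% interval, -0.18 to 0.25 with a log2 fold change of 0.03, was the narrowest of the set. Postn (chromosome 3, 54361109 to 54391037, plus strand) encodes periostin, a collagen-organising protein of developing valves and of activated fibroblasts. It was at 355, 369 and 275 CPM in GR-cKO hearts and at 372, 460 and 371 CPM in control hearts. The groups did not overlap, but the highest GR-cKO heart lay just under the lowest control. The log2 ratio of GR-cKO over control came to -0.27 (SE 0.130, 95% interval -0.54 to 0.0055, unadjusted p = 0.0543, edgeR adjusted p = 0.998). It was -0.15 without GR-cKO replicate 3 and -0.16 without control replicate 2.

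Tnc (chromosome 4, 63959785 to 64047015, minus strand) encodes tenascin-C, which loosens cell adhesion in remodelling tissue. It was at 27.1, 29.7 and 17.4 CPM in GR-cKO hearts and at 27.6, 28.1 and 28.8 CPM in control hearts. The controls lay close together and only GR-cKO replicate 3 was low (log2 fold change -0.19, SE 0.175, 95% interval -0.55 to 0.18, and 0.01 without that heart). Sparcl1, a relative of Sparc that is strong in blood vessels, averaged 330.0 ± 17.8 CPM in GR-cKO and 355 ± 19.8 CPM in control hearts (SD, n = 3 each). Fn1, fibronectin, averaged 182 ± 26.1 and 194 ± 14.4 CPM in GR-cKO and control hearts (SD, n = 3 each). Thbs1, thrombospondin-1, an activator of latent TGF-beta, was at 9.77, 6.79 and 8.50 CPM in GR-cKO hearts and at 7.00, 11.9 and 9.18 CPM in control hearts.

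The remodelling genes comprised 9 genes, with log2 fold changes from -0.20 to 0.08, of which 7 were below 0 (median -0.06). The intervals of all 9 left out changes of 1.5-fold, against 47.8% of all tested genes. Timp2 (chromosome 11, 118301069 to 118355740, minus strand) encodes an inhibitor of metalloproteinases that also helps to activate pro-MMP2. It was at 546, 584 and 576 CPM in GR-cKO hearts and at 591, 544 and 548 CPM in control hearts, the steadiest of the 33 over hearts with a ratio of highest to lowest of 1.09 (log2 fold change 0.02, 95% interval -0.20 to 0.24). Timp3, the matrix-bound inhibitor, averaged 141 ± 14.4 CPM in GR-cKO and 133 ± 6.55 CPM in control hearts, and Timp1 averaged 13.4 ± 2.90 and 13.9 ± 2.69 CPM in GR-cKO and control hearts (SD, n = 3 each). The gelatinase gene Mmp2 averaged 84.5 ± 7.92 and 91.0 ± 4.38 CPM, and Mmp14, its membrane-bound activator, averaged 93.1 ± 9.58 and 97.3 ± 10.7 CPM, in GR-cKO and control hearts (SD, n = 3 each). The summed level of the 3 TIMP genes over that of the 2 MMP genes was 3.59, 4.49 and 4.19 in GR-cKO hearts and 4.04, 3.35 and 3.94 in control hearts, overlapping ranges.

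Serpinh1 (chromosome 7, 99345376 to 99353239, minus strand) encodes the collagen chaperone HSP47. It was at 428, 536 and 478 CPM in GR-cKO hearts and at 512, 503 and 491 CPM in control hearts, where the controls lay inside the GR-cKO range (log2 fold change -0.06, SE 0.112, 95% interval -0.30 to 0.17). The lysyl oxidases crosslink collagen and elastin. Loxl1 (chromosome 9, 58287738 to 58313186, minus strand), the most abundant of them here, was at 116, 114 and 99.0 CPM in GR-cKO hearts and at 114, 128 and 118 CPM in control hearts. Its groups overlapped by a narrow margin (log2 fold change -0.13, SE 0.114, 95% interval -0.37 to 0.11, edgeR adjusted p = 0.998). Loxl2 (chromosome 14, 69609068 to 69695834, plus strand) had levels of 66.2, 59.2 and 43.7 CPM in GR-cKO hearts and of 53.9, 79.4 and 61.5 CPM in control hearts. GR-cKO replicate 3 was lowest and control replicate 2 highest, as for Eln (log2 fold change -0.20, SE 0.162, 95% interval -0.55 to 0.14, edgeR adjusted p = 0.998, and -0.03 without control replicate 2). Of the genes given in full whose adjusted p is not printed, all had an edgeR adjusted p of 0.998 or 0.999. Lox averaged 20.5 ± 1.26 CPM in GR-cKO and 21.5 ± 4.19 CPM in control hearts (SD, n = 3 each).

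The fibroblast identity genes both had a positive log2 fold change, while 12 of 14 other fibroblast markers had a negative one. The sign of Pdgfra turned without GR-cKO replicate 3 (-0.12) and with library totals (-0.014). Pdgfra (chromosome 5, 75152292 to 75198215, plus strand) encodes the PDGF receptor that marks cardiac fibroblasts. It was at 31.2, 23.2 and 36.4 CPM in GR-cKO hearts and at 30.0, 30.4 and 28.0 CPM in control hearts, where the controls lay inside the GR-cKO range (log2 fold change 0.04, SE 0.161, 95% interval -0.30 to 0.37). Tcf21 (chromosome 10, 22817281 to 22820174, minus strand) encodes a transcription factor required for the fibroblast lineage of the heart. It was at 23.1, 23.4 and 22.8 CPM in GR-cKO hearts and at 18.8, 18.9 and 21.0 CPM in control hearts. All 3 GR-cKO hearts lay above all 3 controls, with a log2 fold change of 0.24 (SE 0.152, 95% interval -0.08 to 0.56, unadjusted p = 0.135, edgeR adjusted p = 0.998). It ran from 0.21 to 0.29 with each heart left out. In whole tissue, fewer cells of a type and less RNA per cell cannot be told apart.

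Side by side, the median log2 fold changes were -0.14 for proteoglycans, -0.10 for elastic fibre genes, -0.14 for matricellular and adhesive genes and -0.06 for remodelling genes. Their order changed with the libraries used. The proteoglycan median was -0.22 without GR-cKO replicate 3. The elastic fibre median was -0.18 without GR-cKO replicate 2, -0.02 without control replicate 2 and -0.15 without control replicate 3. The matricellular median was -0.23, -0.06 and -0.06 without GR-cKO replicates 1, 2 and 3. The remodelling median was -0.13 without GR-cKO replicate 1, -0.10 without GR-cKO replicate 2, -0.0005 without control replicate 2 and -0.13 without control replicate 3. The summed level of the proteoglycans was 1354 ± 150.2 CPM in GR-cKO and 1401 ± 124 CPM in control hearts (SD, n = 3 each). For the elastic fibre genes it was 1128 ± 223 and 1337 ± 357 CPM, for the matricellular and adhesive genes 2793 ± 104 and 2857 ± 155 CPM, and for the remodelling genes 1568 ± 71.8 and 1604 ± 40.7 CPM, in GR-cKO and control hearts (SD, n = 3 each). In all 4 cases the difference between the means was smaller than the SD of either group, and the ranges of the groups overlapped. The 33 genes together took 0.695, 0.734 and 0.615% of mouse gene reads in GR-cKO hearts and 0.687, 0.808 and 0.707% in control hearts. In TMM-scaled CPM they summed to 6915, 6959 and 6810 in GR-cKO hearts and to 6782, 7966 and 6996.5 in control hearts.

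**Figure D3:**
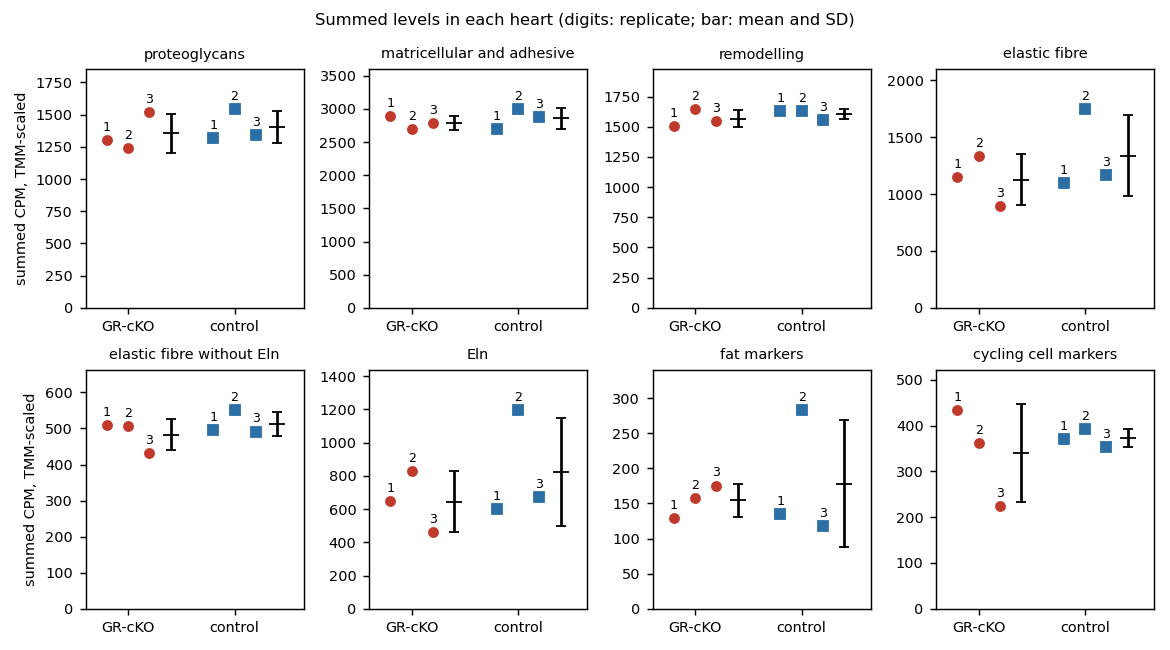
Summed TMM-scaled CPM of the 4 larger functional groups, of the elastic fibre genes without Eln, of Eln alone, and of fat and cycling cell markers in each heart, with the replicate number above each point and the mean and SD beside the points. Control replicate 2 is highest for Eln (1197 CPM) and for fat markers (283 CPM), and GR-cKO replicate 3 is lowest for Eln (459 CPM) and for cycling cell markers (224 CPM).

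Single hearts stood apart for several genes. Over the 33 genes the median coefficient of variation within a group was 13.2%. For 19 genes the highest heart was less than 1.5-fold above the lowest, and for 3, Efemp1, Eln and Mfap5, it was more than 2-fold above. Control replicate 2 held the highest value of 15 of the 33 genes and the lowest of 1, while GR-cKO replicate 3 held the lowest of 11 and the highest of 3. How often these hearts were highest or lowest over all tested genes was not counted. The median deviation from the mean log2 CPM in control replicate 2 was 0.13 for the 33 and 0.016 for all tested genes. In GR-cKO replicate 3 it was -0.087 and 0.0051. For 9 genes, Eln, Fbln2, Loxl1, Loxl2, Mmp14, Ogn, Postn, Prelp and Timp1, the highest value was that of control replicate 2 and the lowest that of GR-cKO replicate 3. In control replicate 2 the 5 fat markers summed to 283 CPM, while the other hearts had 117 to 176 CPM, and Adipoq was at 13.2 CPM with at most 4.43 CPM elsewhere. Cidea made up most of this sum in all 6 hearts and was at 128 to 167 CPM in GR-cKO and 117 to 163 CPM in control hearts, highest in GR-cKO replicate 3. In GR-cKO replicate 3 all 8 cycling cell markers were lowest of the 6 hearts. Control replicate 2 was also the highest heart for the summed level of the 6 endocardial and valve markers, at 263 CPM. The sum was 222 and 225 CPM in the other controls and 209 to 224 CPM in GR-cKO hearts. Tbx20 made up most of it in all 6 hearts, at 131 to 149 CPM in GR-cKO and 140 to 181 CPM in control hearts. Tbx20 and Cthrc1 were highest in control replicate 2, Npr3 and Prg4 in control replicate 3, and Nfatc1 and Plvap in GR-cKO hearts. The sum of the 8 epicardial and mesothelial markers was lowest in GR-cKO replicate 3, at 47.7 CPM. It was 61.0 and 80.6 CPM in the other GR-cKO hearts and 50.9 to 66.9 CPM in control hearts. Of these markers Upk1b, Msln, Krt19 and Tbx18 were not lowest in GR-cKO replicate 3. The sum of the 8 cardiomyocyte markers was highest in GR-cKO replicate 3, with 47400 to 60348 CPM in GR-cKO and 46567 to 51168 CPM in control hearts. Of these markers Actc1, Ryr2 and Ttn were not highest in GR-cKO replicate 3. Endothelial markers, 8 genes in all, summed to 2834 to 3050 CPM in GR-cKO and 2788 to 2911 CPM in control hearts, and the 8 macrophage markers to 94.6 to 107 CPM in GR-cKO and 88.9 to 99.8 CPM in control hearts. The 5 Schwann cell markers summed to 9.10 to 21.4 CPM in GR-cKO and 10.4 to 21.0 CPM in control hearts. The cartilage and bone list summed to 58.1 to 83.6 and 51.1 to 83.4 CPM in GR-cKO and control hearts, almost all of it Sox9, and Ibsp was at 0 in 5 of the 6 hearts. The 9 mural markers summed to 1924 to 2127 CPM in GR-cKO and 1633 to 1868 CPM in control hearts, all GR-cKO hearts above all controls. Acta2 was the largest part of this sum in all 6 hearts. It alone of the 9 had groups that did not overlap, or 11.1%, against 9.97% of all tested genes. Acta2 was at 1090 to 1125 CPM in GR-cKO and 720 to 926 CPM in control hearts (log2 fold change 0.45, edgeR adjusted p = 0.998). Of the 9 markers 6, or 66.7%, had a negative log2 fold change (median -0.04), against 48.7% of all tested genes. The part of these features in the matrix levels was not tested.

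**Figure D4:**
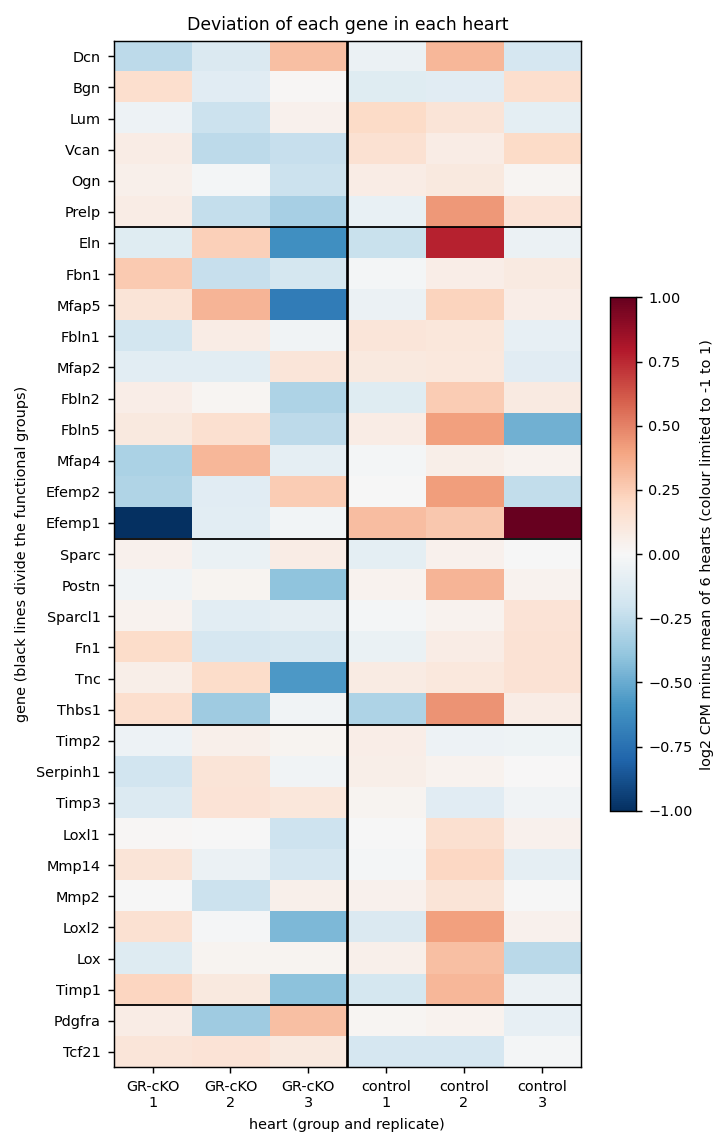
Deviation of each gene's log2 CPM from its mean over the 6 hearts, with the GR-cKO hearts left of the control hearts and black lines between functional groups. The strongest colours belong to Efemp1, to Eln and Mfap5 in GR-cKO replicate 3, and to Eln in control replicate 2, while Sparc and Timp2 are close to white in all 6 hearts.

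Further matrix and fibroblast genes outside the set were read from the same fit, and none passed the threshold. Over all tested genes 48.7% had a negative log2 fold change, with a median of 0.01. The next lists had 78.6, 72.7, 60.9 and 59.1% negative, in the order named here. Of 14 other proteoglycan and hyaluronan genes tested, 11 had a negative log2 fold change (median -0.16), and Has2, a hyaluronan synthase that passed the filter only through the controls, had the smallest p with only 0, 11 and 0 reads in GR-cKO hearts and 14, 29 and 23 reads in control hearts. Of 11 further elastic fibre and latent TGF-beta binding genes 8 were negative (median -0.14), and Fbln7, of the fibulin family, was at 1.73, 2.36 and 1.77 CPM in GR-cKO and 3.94, 3.29 and 3.30 CPM in control hearts (edgeR adjusted p = 0.998). Of 23 further matricellular and adhesive genes 14 were negative (median -0.06), and Igfbp7 was at 175, 260.3 and 132 CPM in GR-cKO and 253, 254 and 316 CPM in control hearts, with GR-cKO replicate 2 inside the control range. Of 22 further proteases, inhibitors and collagen processing genes 13 were negative (median -0.03), and Adamts4, a versican-cleaving protease, was at 5.86, 5.33 and 5.38 CPM in GR-cKO and 7.56, 7.71 and 6.24 CPM in control hearts.

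Of 12 TGF-beta ligands, receptors and feedback genes 7, or 58.3%, were negative and 5 positive (median -0.04), against 48.7% negative over all tested genes. Tgfb1, a ligand that drives matrix synthesis, was at 12.6, 7.87 and 10.7 CPM in GR-cKO and 7.30, 5.86 and 8.39 CPM in control hearts (log2 fold change 0.53, SE 0.243, edgeR adjusted p = 0.998), with overlapping groups. Of 14 other fibroblast markers, collagens among them, 12, or 85.7%, were negative (median -0.14), against 48.7% of all tested genes. Col3a1, a fibrillar collagen, was at 909, 1066 and 864 CPM in GR-cKO and 1178, 1222 and 1071 CPM in control hearts. Its groups did not overlap (log2 fold change -0.29, SE 0.112, unadjusted p = 0.0187, edgeR adjusted p = 0.998). This held for 2 of the 14, Col3a1 and Col6a1, or 14.3%, against 9.97% of all tested genes. The 14 markers summed to 4260, 4435 and 4183 CPM in GR-cKO and to 4631, 5252 and 4502 CPM in control hearts, all GR-cKO hearts below all controls by a narrow margin at the nearest pair. As a share of mouse gene reads the groups overlapped, with 0.428, 0.468 and 0.378% in GR-cKO and 0.469, 0.533 and 0.455% in control hearts.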

How the data were processed

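Heart tissue of 3 GR-cKO and 3 control mice was profiled by QuantSeq 3′ mRNA-Seq FWD, per the labels' protocols. The deposited files hold raw counts, whole numbers of reads for each Ensembl gene ID with 1 file for each library. Per the submitters' processing notes the authors used GRCm38 with STAR 2.5.4a and featureCounts 1.6.2, besides bcl2fastq, cutadapt 1.16 and DESeq2 1.18.1, and FastQC 0.11.7 and MultiQC 1.5. For the annotation release and the strand setting: not given in the sources used here. In the annotation used here, exons of 12 of the 33 genes overlap a gene on the opposite strand. Symbols and coordinates came from GENCODE M21 on the same build. The 92 ERCC and 7 SIRV spike-in rows, 1.63 to 2.01% of reads, entered neither library sizes nor tests.

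Genes were filtered with filterByExpr, which kept 14860 of 52550. Genotype was tested with edgeR 4.0.16 in R 4.3.3 (quasi-likelihood F test, robust, TMM scaling, all 6 libraries) with Benjamini-Hochberg adjustment over all tested genes and a threshold of 0.05. SE and 95% intervals follow this model and cover the spread between hearts. Deviations and list scores used log2 CPM with a prior count of 2. Alternatives were DESeq2 1.42.0, limma 3.58.1 voom, other scalings, no filter, the replicate number or sex as a term, and each library left out. Genes given in full were the 2 of highest level and the 2 of smallest p in each group, those whose groups of hearts did not overlap and, of each other list, the gene of smallest p. Genes and lists were chosen with earlier results of these data known. The 9 genes that shared their highest and lowest heart were named after their values were seen. So were Gm42418 and every single gene named from the lists of cell type markers.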

Additional observations from a re-analysis of the deposited data

How the results depend on the processing

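No gene of the set was called under any of the 14 alternatives. Over all genes the main count of 1 (0 higher, 1 lower) was 4 with DESeq2 (1 higher, 3 lower), 2 with library totals (0 higher, 2 lower), 10 without the filter (4 higher, 6 lower), and 1 to 2 with a library left out (0 higher, 1 to 2 lower). With a library left out the median ran from -0.22 to -0.11 for proteoglycans, -0.18 to -0.02 for elastic fibre genes, -0.23 to -0.06 for matricellular genes and -0.13 to -0.0005 for remodelling genes. With library totals the signs of Sparc (-0.0048), Timp2 (-0.015) and Pdgfra (-0.014) turned, and with spike-in scaling those of Fbln5 (0.056), Mfap4 (0.046), Mfap5 (0.013), Mmp14 (0.0013) and Timp1 (0.027). With each library left out in turn, the log2 fold changes of 17 genes turned sign, with ranges of Bgn -0.031 to 0.14, Dcn -0.25 to 0.10, Efemp2 -0.29 to 0.088, Eln -0.58 to 0.016, Fbln5 -0.24 to 0.18, Fbn1 -0.24 to 0.013, Lox -0.20 to 0.079, Mfap4 -0.23 to 0.12, Mfap5 -0.31 to 0.16, Mmp14 -0.14 to 0.028, Pdgfra -0.12 to 0.19, Serpinh1 -0.15 to 0.018, Sparc -0.0056 to 0.073, Thbs1 -0.34 to 0.048, Timp1 -0.18 to 0.11, Timp2 -0.0023 to 0.058 and Tnc -0.34 to 0.012. The cause was not tested. Same-numbered hearts correlated across genes at 0.062, 0.0562 and 0.0144, and GR-cKO replicate 3 correlated better with control replicate 2 (0.0294). The main test did not treat hearts as pairs. With the replicate block 1 gene was called in all and 0 of the set, with a median of -0.10. The depth of 7 to 65 reads limits Efemp1 most.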
